A study of Mus musculus with 23 samples.

Results

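The genes described here move calcium, phosphate, zinc and sugar into milk or make its sugar. They are 9 genes: Atp2b2, Atp2c1, Slc34a2, Slc30a2, Slc30a4, Slc2a1, Slc35a2, B4galt1 and Pthlh. A probe set was taken when its only listed gene symbol was one of these names, which gave 21 probe sets of 45101 and covered 8 of the 9 genes. No probe set listed Pthlh alone, so Pthlh, the hormone through which the breast calls calcium from bone, has no value here. All 8 measured genes were among the 15378 genes tested, of 18193 genes with a probe set, and 20 of their 21 probe sets passed the filter on low values.

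RNA of purified mammary epithelial cells was hybridised to 23 Affymetrix arrays, 1 sample each. The cells came from female C57BL/6 mice, an inbred strain. The groups were pregnant mice on days 10, 16 and 19, retired breeders, and virgin mice aged 3 and 9 weeks. Each was divided into mature luminal cells, luminal progenitors and stem cells, except day 19, which had mature luminal cells only. Of the 16 groups, 7 had 2 arrays, namely day-10 mature luminal and stem cells, every cell type at 9 weeks, and 3-week luminal progenitors and stem cells. The other 9 groups had 1 array each. In total 9 arrays came from pregnant mice, 11 from virgin mice and 3 from retired breeders. Neither the sorting markers nor the number of animals behind an array are stated in the labels. A p-value here sets a difference against the spread between arrays within the 7 groups of 2, and part of that spread may be technical. The groups of 1 array have no spread of their own. Retired breeders differ from virgins in both age and earlier pregnancies.

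The values are log2 expression values as deposited, and a difference of 1 is a doubling on that scale. Array medians lay between 4.51 and 5.47, and a value under the median of its own array is treated as not distinguishable from background. In these preparations a smaller number of cells of one kind and less RNA per cell cannot be told apart. Each difference is given with its standard error from a limma model fitted to all arrays, and genes whose p stayed under 0.05 after Benjamini-Hochberg adjustment across the 15378 genes are said to have passed.

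Milk is made in the luminal cells of the gland. Its calcium is bound to casein in the secretory pathway and is pumped both into the Golgi and across the apical membrane. Phosphate, zinc and glucose enter through carriers of the SLC families, and lactose is made from glucose and UDP-galactose inside the Golgi, where it draws in water.

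Slc30a2 was under the array median on all 14 arrays that were not from pregnant mice and Atp2b2 on 11 of them. Slc34a2 was above the median on 20 of 23 arrays, at moderate levels, and the other 5 genes were above it on every array. Slc30a2, Slc34a2 and Atp2b2 varied widely between groups, with standard deviations of the group means of 2.05, 1.77 and 1.63, at the 96.7th, 93.7th and 91.6th percentile of all genes tested. B4galt1 lay at the 43.2nd percentile with 0.67. Slc35a2 with 0.44, Slc30a4 with 0.37, Atp2c1 with 0.26 and Slc2a1 with 0.26 varied less than most genes, at percentiles of 17, 10.3, 2.7 and 2.7. These values are for the probe set that stands for each gene. Of 96 pairs of a gene and one of 12 comparisons, 4 passed the threshold, and these involved Slc30a2 in 2 comparisons and Slc34a2 and Atp2b2 in 1 each. The share of all genes that passed ran from 0.0065% in retired breeders minus 9-week virgins to 8.34% in mature luminal minus stem cells. The comparisons share arrays, so the 96 pairs are not independent.

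Slc30a2, the zinc exporter ZnT2, loads zinc into the vesicles of secreting mammary cells, and human mothers with a defective copy produce zinc-poor milk. In mature luminal cells its values were 4.35 and 5.43 on day 10, 7.96 on day 16 and 8.06 on day 19. They were 2.69 and 4.50 in 9-week virgins, 2.02 in the 3-week virgin array and 3.67 in the retired breeder array. Day 16 and day 19 stood above every array from a mouse that was not pregnant, and the lower of the pair from day 10 lay below one of the 9-week arrays. In luminal progenitors the values were 6.91 on day 10 and 5.35 on day 16, against 1.44 and 1.16 in 9-week virgins. The 3-week luminal progenitors had 2.54 and 1.78 and the retired breeder array 3.65, so both pregnant arrays were above all others of this cell type. In stem cells the values were 3.89 and 4.71 on day 10 and 5.48 on day 16, against 2.76 and 3.39 in 9-week virgins. The 3-week stem cells had 2.73 and 2.26 and the retired breeder stem cells 3.35. The pregnant stem arrays were above all others of their type, within a narrower range. Both day-10 stem values were under their array medians of 4.79 and 4.90, so their rank lies within background. The day-16 stem value was above its array median of 4.98. Slc30a2 exceeded the median of its array on 6 of 9 pregnant arrays and on 0 of 14 others.

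The pregnancy comparison asked what days 10 and 16 changed relative to 9-week virgins, averaged over the 3 cell types. Slc30a2 averaged 5.82 in pregnant and 2.66 in 9-week virgin cells, a rise of 3.16 ± 0.43 with an adjusted p of 0.00178. It was higher in 3 of 3 cell types, though the day-10 stem values were within background. Slc30a2 met the filter on low values only because of pregnant arrays, so the arrays where it was high brought it into every test here. The 9-week level is within background, so the difference is not an exact fold, and with values under the array median raised to it the difference was 1.08 (adjusted p = 0.00738). Slc30a2 was the 1 of 8 genes that passed, beside 7.13% of all genes that passed in either direction and 3.77% that passed as higher. Leaving out any one of 14 arrays kept the difference between 2.65 and 3.46, with adjusted p from 0.00193 to 0.00864. The array titles carry replicate numbers, and arrays with the same number deviated together. Within the arrays titled replicate 1 the difference was 1.40, from stem and mature luminal cells on day 10. Within the others, which include day 16 and luminal progenitors, it was 2.96. With the number as a block and the unnumbered arrays left out, the difference was 1.26 and the adjusted p was 0.204, and with those arrays kept beside replicate 2 the adjusted p was 0.000667.

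**Figure D1:**
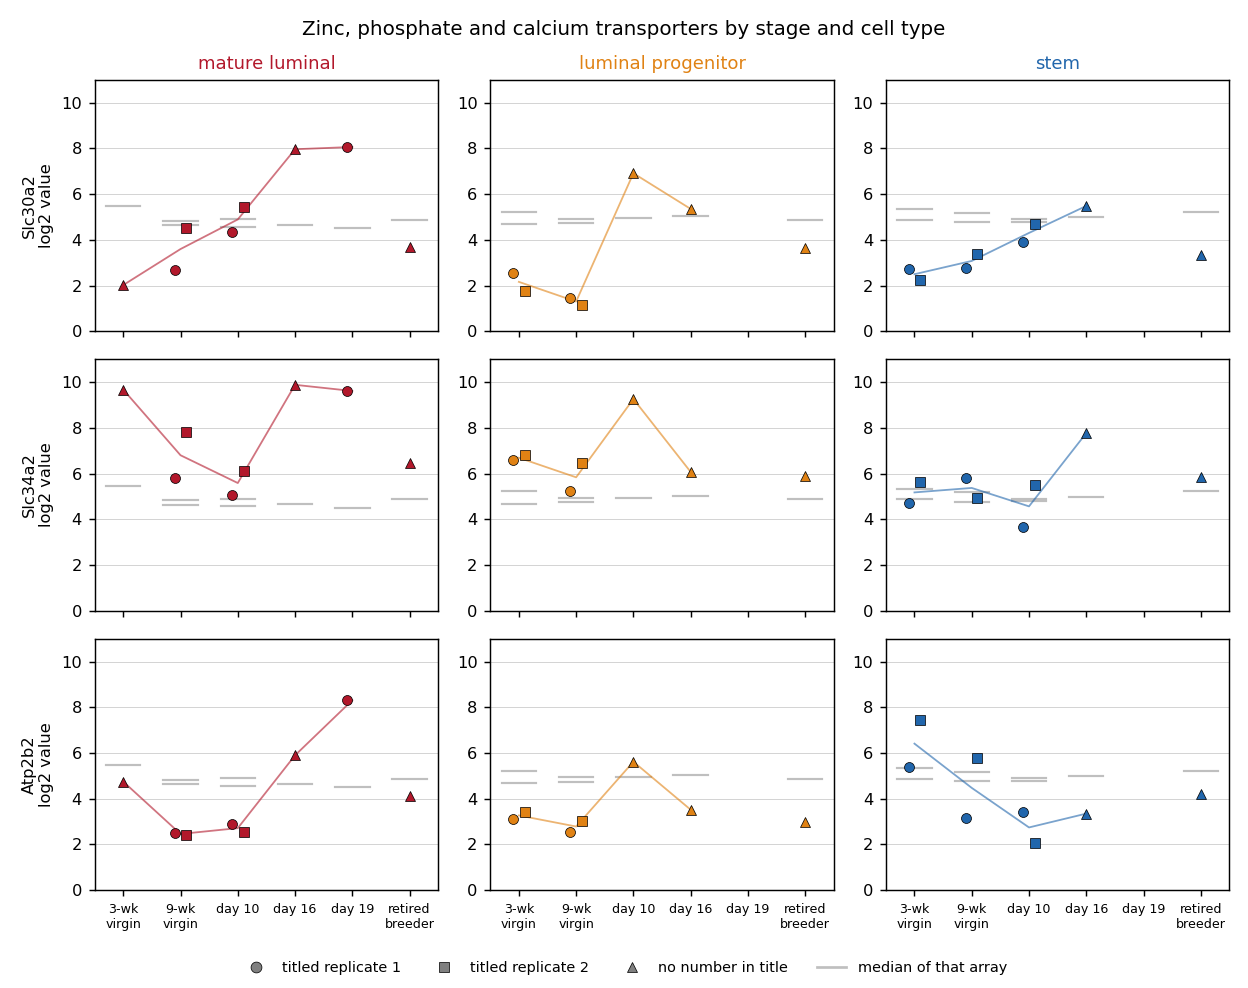
Log2 values of Slc30a2, Slc34a2 and Atp2b2 (rows) by reproductive stage, in mature luminal cells, luminal progenitors and stem cells (columns). Each symbol is 1 array, lines join the group means from 3-week virgins through pregnancy, and grey bars mark the median of each array. Slc30a2 reaches 8.06 and Atp2b2 8.31 in day-19 mature luminal cells, and Slc30a2 stays under the grey bars on all 14 arrays that are not from pregnant mice.

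Within luminal progenitors Slc30a2 was 4.83 ± 0.79 higher in pregnancy (6.13 against 1.30, adjusted p = 0.0416), the 1 of 8 genes that passed where 0.156% of all genes did, 0.0585% as higher. That call was lost without any one of the 4 arrays involved, with adjusted p from 0.0551 to 0.45. It was also lost with values under the array median raised to it. The 9-week luminal progenitor arrays had medians of 4.74 and 4.93, so their level of 1.30 is within background and the difference is not an exact fold. Both pregnant luminal progenitor arrays, of days 10 and 16, also stood apart in markers of other cells. Of 10 fibroblast markers, 9 were higher on both than on both 9-week arrays, and the list averaged 9.62 and 10.02 on them, against 6.21 and 6.37. Of 8 leukocyte markers 6 were higher on both, with list means from 7.34 to 7.88, against 4.45 to 5.90. Of 12 basal markers 8 were higher, with list means from 10.05 to 11.15, against 8.17 to 9.23, and 5 of 10 endothelial markers were higher, with list means of 7.10 or more, against 5.68 to 6.62. Of 6 luminal keratins and junction genes 5 were lower on both, at 11.90 to 12.00 against 12.34 to 12.95. None of the markers in these 5 lists was listed at 0. The part of these cells in the Slc30a2 result was not tested within luminal progenitors. Without both arrays, the average over the remaining cell types was 2.32 with an adjusted p of 0.0339.

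Within mature luminal cells Slc30a2 averaged 6.43 on days 10 and 16 and 3.60 in 9-week virgins, a difference of 2.83 ± 0.73 with an adjusted p of 0.0735. None of the 8 genes passed there by limma, beside 2.25% of all genes. Of the 8, 1 had an unadjusted p under 0.05, beside 1964 of all 15378 genes. The Slc30a2 difference passed once values under the array median were raised to it, at 1.75 with an adjusted p of 0.0178, and with virgins of both ages combined, at 3.62 with an adjusted p of 0.014. It also passed with the replicate block that kept the unnumbered arrays, at 2.73 with an adjusted p of 0.0286. Markers of luminal cell kinds moved in the same comparison. Of 7 hormone-sensing mature luminal markers 5 fell, namely Prom1, Foxa1, Esr1, Pgr and Cited1, with list means from 5.91 to 9.07 on the 3 pregnant arrays, against 9.48 to 10.54 at 9 weeks. Of 8 luminal progenitor markers Kit and Elf5 rose, with list means from 8.84 to 10.19, against 7.73 to 7.84, and no marker of either list was at 0. Basal list means were 8.63 to 10.01 on the pregnant arrays, against 8.07 and 10.09 at 9 weeks. The part of basal cells or of the kind of luminal cell collected in the Slc30a2 difference was not tested. Within stem cells the Slc30a2 difference was 1.82 ± 0.73 with an adjusted p of 0.358, where the day-10 and 9-week values were within background. There 0 of 8 genes passed by limma, beside 0.26% of all genes, and 1 had an unadjusted p under 0.05, beside 1854 of all 15378. The pregnancy effect on Slc30a2 in mature luminal cells minus that in stem cells was 1.02 ± 1.04 (adjusted p = 1). In that interaction no gene of the 8 passed by limma, beside 0.013% of all genes. An unadjusted p under 0.05 was found for 1 of the 8, beside 901 of all 15378.

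Pregnant stem cell arrays also carried milk protein signal. The mean of a list of 9 milk genes, the caseins and other milk proteins with their regulator Elf5, was 9.52 to 12.07 on pregnant stem arrays, against 6.05 and 7.02 in 9-week stem cells, and 7 of the 9 genes were higher on every pregnant stem array. The part of milk-making cells in the stem values of Slc30a2 was not tested.

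Slc30a4, the zinc exporter ZnT4, is the gene mutated in the lethal milk mouse, whose milk lacks zinc. Its values in mature luminal cells were 10.72 and 10.42 on day 10, 11.15 on day 16 and 11.42 on day 19, against 11.20 and 10.42 in 9-week virgins. In luminal progenitors it had 10.57 on day 10 and 10.08 on day 16, against 11.36 and 10.18 at 9 weeks, and in stem cells 9.91 and 10.30 on day 10 and 10.29 on day 16, against 10.85 and 10.68. The 3 pregnant stem arrays lay below the 4 virgin ones, which had 11.38 and 10.95 at 3 weeks. Slc30a4 was above the array median on all 23 arrays, between 9.91 and 11.42, and luminal values of pregnant and virgin mice overlapped. Its pregnancy difference was -0.32 ± 0.25 (adjusted p = 0.458). The 2 zinc exporters thus differed in pattern, one near background in virgin cells and the other high on every array.

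The start regions of both zinc exporters hold the core letters of the metal response element, the sequence that the zinc-sensing factor MTF1 binds. They are shown beside those of Slc34a2 and B4galt1, from RefSeq on the mouse build GRCm38.p6, as 250 bases before the listed start and, for Slc30a2, the 30 bases at 218 to 189 before it. The Slc30a2 stretch is at chr4:134343248-134343277 on the plus strand, inside the annotated span of the gene. Slc30a4 is at chr2:122702664-122702913 on the minus strand, Slc34a2 at chr5:53049103-53049352 on the plus strand and B4galt1 at chr4:40853985-40854234 on the minus strand, each just before its gene. Capitals mark TGCGCNC on either strand in the first 3 and the STAT5 letters TTCNNNGAA in B4galt1. STAT5 is the factor that prolactin activates.
Slc30a2: tcccGCGCGCAacttcgaGGGCGCAccgag
Slc30a4: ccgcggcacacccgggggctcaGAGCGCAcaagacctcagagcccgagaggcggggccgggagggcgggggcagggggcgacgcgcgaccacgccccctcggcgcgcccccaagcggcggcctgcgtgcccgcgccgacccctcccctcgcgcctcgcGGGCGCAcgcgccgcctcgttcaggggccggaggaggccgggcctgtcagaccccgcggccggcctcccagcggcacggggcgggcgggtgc
Slc34a2: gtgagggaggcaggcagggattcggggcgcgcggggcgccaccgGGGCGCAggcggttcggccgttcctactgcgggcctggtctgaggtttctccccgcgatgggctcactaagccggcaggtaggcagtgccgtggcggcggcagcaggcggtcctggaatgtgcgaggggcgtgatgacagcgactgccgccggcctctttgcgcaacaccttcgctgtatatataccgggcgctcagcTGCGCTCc
B4galt1: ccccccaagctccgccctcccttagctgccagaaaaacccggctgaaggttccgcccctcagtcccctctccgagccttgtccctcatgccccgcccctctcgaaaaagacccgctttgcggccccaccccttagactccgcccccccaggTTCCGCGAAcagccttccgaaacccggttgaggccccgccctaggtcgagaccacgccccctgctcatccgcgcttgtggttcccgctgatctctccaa

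TGCGCNC was found in 5 of 12 windows of the 9 genes, and in 12.5% of 32851 windows of all genes. Slc30a2, Slc30a4 and Slc34a2 held 2 matches each, and Atp2c1 and Slc35a2 held 1 each. The second metal response core, TGCACNC, was in Slc2a1 only, and in 10.4% of all windows. The STAT5 letters were in B4galt1 only, 99 bases before its start, and in 7.02% of all windows. TATAAA was in 0 of the 12 windows and in 12.4% of all, and the E-box CANNTG was in 6 windows of 5 genes and in 66.2% of all. In Slc34a2 an E-box match shares 2 bases with a TGCGCNC match. The windows of these genes were 51.6% to 82.8% G and C, against a median of 52.4% over all windows, and a match of letters is a description of the window alone. Slc30a2 and Slc30a4 hold the same number of TGCGCNC matches, in windows of 64.0% and 82.8% G and C. A link between these matches and the values of the genes was not tested.

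Atp2b2, the plasma membrane calcium pump PMCA2, carries calcium across the apical membrane of secreting cells into milk, and mice without it make calcium-poor milk. In mature luminal cells its values were 2.89 and 2.54 on day 10, 5.90 on day 16 and 8.31 on day 19. They were 2.49 and 2.43 in 9-week virgins, 4.75 in the 3-week array and 4.11 in retired breeders. Day 10 was within background and close to the 9-week arrays, and days 16 and 19 were above their array medians. In luminal progenitors the pump had 5.62 on day 10 and 3.52 on day 16, against 2.55 and 3.02 in 9-week virgins, 3.12 and 3.42 in 3-week virgins and 3.00 in retired breeders. In stem cells it had 3.43 and 2.06 on day 10 and 3.35 on day 16, against 3.16 and 5.79 in 9-week virgins, 5.38 and 7.44 in 3-week virgins and 4.20 in retired breeders. Atp2b2 was thus above the array median on 3 of 9 pregnant arrays, all luminal, and on 3 of 14 others, all virgin stem cells.

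The late pregnancy comparison set the day-19 mature luminal array against 9-week virgin mature luminal cells. Atp2b2 was 5.85 ± 1.17 higher (8.31 against a mean of 2.46, adjusted p = 0.0382), the 1 of 8 genes that passed. In that comparison 1.14% of all genes passed in either direction and 0.351% passed as higher. The 9-week level is within background, so the difference is not an exact fold, and it was 1 array against 2. The call was lost without either 9-week array, at 5.82 with an adjusted p of 0.167 and at 5.88 with 0.0983. It was also lost when the mean of the probe sets stood for the gene, at 3.75 with an adjusted p of 0.0812. The second Atp2b2 probe set that passed the filter had 6.13 on day 19, its highest of the 23 arrays, and was 3.32 ± 1.23 above 9-week virgins (adjusted p = 0.406 over all probe sets). The third, which did not pass the filter, was below the array median on all arrays.

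Of the other genes in the late pregnancy comparison, Slc30a2 was 4.47 ± 0.96 higher (8.06 against 3.60, adjusted p = 0.0518), and with the numbered replicate block it passed at 4.67 (adjusted p = 0.0123). Slc34a2 was 2.81 ± 1.04 higher (9.61 against 6.80, adjusted p = 0.311), and with that block it passed at 3.26 (adjusted p = 0.04). B4galt1 was 1.17 ± 0.41 higher (12.95 against 11.78, adjusted p = 0.281). The remaining 4 had differences from 0.11 in Atp2c1 to 0.61 in Slc30a4. All 8 differences were positive, with a median of 0.89, beside a median of -0.25 over all genes.

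**Figure D2:**
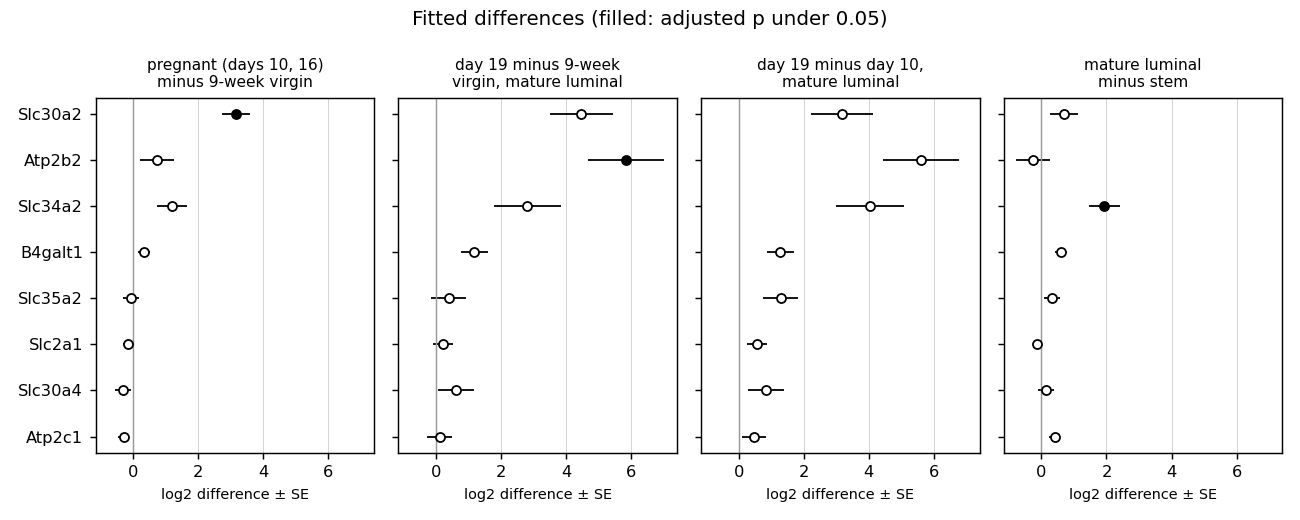
Fitted log2 differences with their standard errors for the 8 genes in 4 comparisons, with filled points for an adjusted p under 0.05. Slc30a2 passes in pregnancy, Atp2b2 on day 19 against 9-week virgins and Slc34a2 between mature luminal and stem cells, while all 8 points lie to the right of 0 on day 19 against day 10.

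The contents of the day-19 array differed from those of the 9-week arrays. All 7 measured markers of hormone-sensing mature luminal cells were lower on it, with a list mean of 5.23 against 9.48 and 10.54. Of 8 luminal progenitor markers 7 were higher, with a list mean of 10.33 against 7.73 and 7.84. All 9 milk protein genes were higher, with a list mean of 13.44 against 5.73 and 8.37, and 5 of 6 luminal keratins and junction genes were higher, at 13.06 against 12.73 and 12.75. Fibroblast markers averaged 3.77 against 3.94 and 4.78, and leukocyte markers 3.18 against 4.69 and 5.59, lower than on either 9-week array. Basal markers averaged 8.93 on day 19, against 8.07 and 10.09, with 3 of 12 higher and 3 lower than on both 9-week arrays. The 9-week arrays differed from each other, with Krt5 at 11.81 on replicate 1 and 7.35 on replicate 2. In 9-week stem cells Krt5 was 11.64 and 11.77. Whether the differences in the transport genes follow the kind of luminal cell collected, or basal cells on a 9-week array, was not tested.

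Day 19 was also set against day 10 in mature luminal cells. Atp2b2 differed by 5.60 ± 1.17 (8.31 against 2.72, adjusted p = 0.244), Slc34a2 by 4.03 ± 1.04 (9.61 against 5.59, adjusted p = 0.314) and Slc30a2 by 3.17 ± 0.96 (8.06 against 4.89, adjusted p = 0.412). None of the 8 genes passed by limma, beside 0.013% of all genes. Of the 8, 5 had an unadjusted p under 0.05, beside 970 of all 15378 genes. With the numbered replicate block Atp2b2 passed at 5.86 (adjusted p = 0.0341) and Slc34a2 at 4.48 (adjusted p = 0.0339). All 8 differences were positive, from 0.47 to 5.60 with a median of 1.29, beside a median of -0.19 over all genes. This comparison shares the day-19 array with the preceding one, and the 8 differences of each rest on that array. The share of all genes with a positive difference was not counted.

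Day 19 held the highest value of all 23 arrays for 4 of the 8 genes. These were Slc30a2, Atp2b2, B4galt1 and Slc30a4. The share of all genes with their highest value on this array was not counted, so the 4 of 8 has no background to compare with. The margin over the next array was 0.87 for Atp2b2, where the next was a 3-week stem array, 0.12 for B4galt1, 0.10 for Slc30a2 and 0.04 for Slc30a4.

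Atp2c1, the Golgi calcium and manganese pump SPCA1, was high and even on the probe set that stands for it. Its values in mature luminal cells were 11.18 and 11.06 on day 10, 11.30 on day 16 and 11.59 on day 19, against 11.66 and 11.30 in 9-week virgins. In luminal progenitors it had 11.27 on day 10 and 11.02 on day 16, against 11.53 and 11.22 at 9 weeks, and in stem cells 11.11 and 10.58 on day 10 and 10.68 on day 16, against a higher value of 11.26 in the 9-week pair. Over all arrays this probe set stayed between 10.58 and 11.66, with pregnant and 9-week values overlapping in luminal progenitors and stem cells. The remaining probe sets of Atp2c1 had lower means, from 6.08 to 8.92, and wider ranges, of 2.82, 2.86, 3.68 and 5.23. The pregnancy difference was -0.29 ± 0.17 (adjusted p = 0.323), and mature luminal minus stem cells gave 0.41 ± 0.17 (adjusted p = 0.18). The 5 probe sets of Atp2c1 shared a direction in both comparisons, from -1.12 to -0.29 in pregnancy and from 0.41 to 0.67 in mature luminal minus stem cells, and none passed. They did not share one on day 19, where they differed from 9-week mature luminal cells by -1.77 ± 0.92, -1.26 ± 0.91, -0.02 ± 1.35, 0.11 ± 0.39 and 0.67 ± 0.83, and none passed.

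Among 24 other genes of calcium handling, 18 were tested, and 2 passed in the pregnancy comparison, both lower, beside 7.13% of all genes in either direction. Atp2a3, an endoplasmic reticulum calcium pump, fell by 1.50 ± 0.32 (adjusted p = 0.018), and Atp2a2, the housekeeping pump of the same organelle, fell by 0.56 ± 0.15 (adjusted p = 0.0488). Within mature luminal cells Atp2a3 fell by 2.58 ± 0.55 (adjusted p = 0.0315). The list's median pregnancy difference was -0.14, beside 0.10 for all genes. On day 19 against 9-week virgins 0 of the 18 passed and their median difference was 0.11, beside the 5.85 of Atp2b2.

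**Figure D3:**
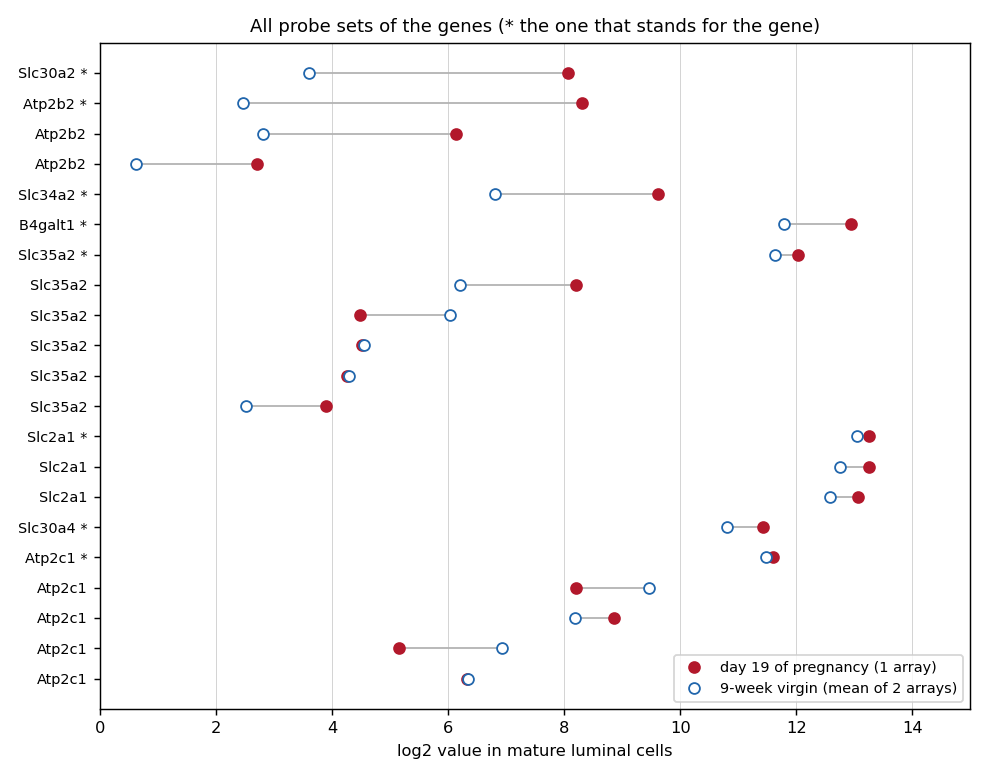
Log2 values of all 21 probe sets of the 8 genes in mature luminal cells on day 19 (filled, 1 array) and at 9 weeks (open, mean of 2 arrays), with an asterisk on the probe set that stands for each gene. The 3 Atp2b2 probe sets all lie higher on day 19, at 8.31, 6.13 and 2.70, and the probe sets of Atp2c1 and Slc35a2 lie on both sides of their 9-week values.

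Slc34a2, the sodium-phosphate cotransporter NaPi-IIb, sits on the apical membrane of secretory epithelia. In mature luminal cells its values were 5.08 and 6.09 on day 10, 9.88 on day 16 and 9.61 on day 19, against 5.79 and 7.81 in 9-week virgins. The 3-week mature luminal array had 9.67 and the retired breeder array 6.48, so days 16 and 19 shared their level with the 3-week array. In luminal progenitors it had 9.26 on day 10 and 6.07 on day 16, against 5.23 and 6.44 at 9 weeks, 6.59 and 6.79 at 3 weeks and 5.89 in retired breeders. In stem cells it had 3.65 and 5.48 on day 10 and 7.77 on day 16, against 5.80 and 4.94 at 9 weeks, 4.73 and 5.62 at 3 weeks and 5.84 in retired breeders. In each cell type 1 or more pregnant arrays stood well above the 9-week pair and 1 or more lay within or below it.

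The pregnancy difference of Slc34a2 was 1.19 ± 0.47 (7.19 against 6.00, adjusted p = 0.142). Within the arrays titled replicate 1, where pregnancy is day 10 in stem and mature luminal cells only, it was -1.43. Within the others, which include day 16 and luminal progenitors, it was 1.03. Replicate, day and cell type cannot be told apart there. Between cell types, Slc34a2 was the 1 of 8 genes that passed in mature luminal minus stem cells, where 8.34% of all genes passed and 1.56% passed as higher. It averaged 7.68 in mature luminal and 5.74 in stem cells, a difference of 1.94 ± 0.47 with an adjusted p of 0.0242. It was higher at 5 of 5 stages, by 4.50 at 3 weeks, 1.43 at 9 weeks, 1.02 on day 10, 2.11 on day 16 and 0.64 in retired breeders.

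That call rested on single arrays. Without the 3-week mature luminal array it was 1.30 (adjusted p = 0.171), and 1.90 when either day-16 array, stem (adjusted p = 0.0543) or mature luminal (adjusted p = 0.0547), was left out. The 3-week mature luminal array had the largest excess of Gapdh signal from its 3′ end over its 5′ end, 5.16 against 0.87 to 3.77 on the other 22, and a large excess is usually read as degraded RNA. Of 8 leukocyte markers 7 were higher on it than on all other mature luminal arrays, with a list mean of 8.35 against 3.18 to 6.56, and Itgam was at 0 on one of the others. All 4 erythroid markers were higher on it, with a list mean of 6.98 against 1.91 to 4.29. This array also had 6 of 10 fibroblast, 5 of 10 endothelial and 4 of 5 adipocyte markers above all other mature luminal arrays. Its fibroblast list mean was 7.18, against 3.72 to 6.82. Luminal keratins and junction genes were lower on it for 4 of 6, with a list mean of 11.95 against 12.64 to 13.06. Basal markers were higher for 2 of 12 and lower for 1, with a list mean of 10.14 against 8.07 to 10.09. The part of RNA quality, blood cells or other cells in the 9.67 of Slc34a2 was not tested. With the numbered replicate block the difference was 1.23 with an adjusted p of 0.117. The arrays titled replicate 1 gave 0.71 on their own, and the remaining arrays 2.06.

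Of 10 other phosphate genes 7 were tested. In mature luminal minus stem cells 3 passed, all lower, beside the 8.34% of all genes. Ank, which exports pyrophosphate and ATP, differed by -2.40 ± 0.28 (adjusted p = 0.000568). The tissue-nonspecific alkaline phosphatase Alpl differed by -2.36 ± 0.47 (adjusted p = 0.0093), and the phosphate importer Slc20a1 by -1.16 ± 0.24 (adjusted p = 0.0106). The list median was -0.73, beside 0.03 for all genes. In this comparison 6 of 10 fibroblast markers passed as lower with a list median of -2.50, as did 6 of 10 endothelial markers with -1.81. Fibroblast list means were 3.72 to 7.18 on mature luminal arrays, against 7.16 to 9.01 on stem arrays, endothelial means began at 5.11 on mature luminal arrays, against 6.29 to 11.37 on stem arrays, and no marker of either list was at 0. The part of such cells in the phosphate genes, Slc34a2 included, was not tested. Slc34a3, a kidney relative of Slc34a2, fell by 2.52 ± 0.61 in pregnancy (adjusted p = 0.0305). It was the 1 of the 7 that passed there, beside 7.13% of all genes. Ank also fell within mature luminal cells in pregnancy, by 2.51 ± 0.47 (adjusted p = 0.0187).

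B4galt1, the galactosyltransferase that becomes lactose synthase when it binds the milk protein alpha-lactalbumin, was high on every array. In mature luminal cells its values were 11.64 and 11.71 on day 10, 12.83 on day 16 and 12.95 on day 19, against 11.50 and 12.06 in 9-week virgins. The 3-week array had 10.76 and the retired breeder array 11.68, and days 16 and 19 were above all other arrays of the series. In luminal progenitors it had 12.00 on day 10 and 11.02 on day 16, against 11.46 and 10.98 at 9 weeks, 11.64 and 11.29 at 3 weeks and 11.65 in retired breeders. In stem cells it had 10.21 and 10.91 on day 10 and 11.69 on day 16, against 11.11 and 10.73 at 9 weeks, 11.46 and 11.53 at 3 weeks and 10.98 in retired breeders. In luminal progenitors and in stem cells the pregnant and virgin values overlapped. The pregnancy difference was 0.32 ± 0.19 (11.63 against 11.31, adjusted p = 0.31). In mature luminal minus stem cells it was 0.62 ± 0.19 (11.75 against 11.13) with an adjusted p of 0.0645, and the numbered replicate block gave 0.99 (adjusted p = 0.0133). Without the 3-week mature luminal and retired breeder stem arrays it passed at 1.04 (adjusted p = 0.014).

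**Figure D4:**
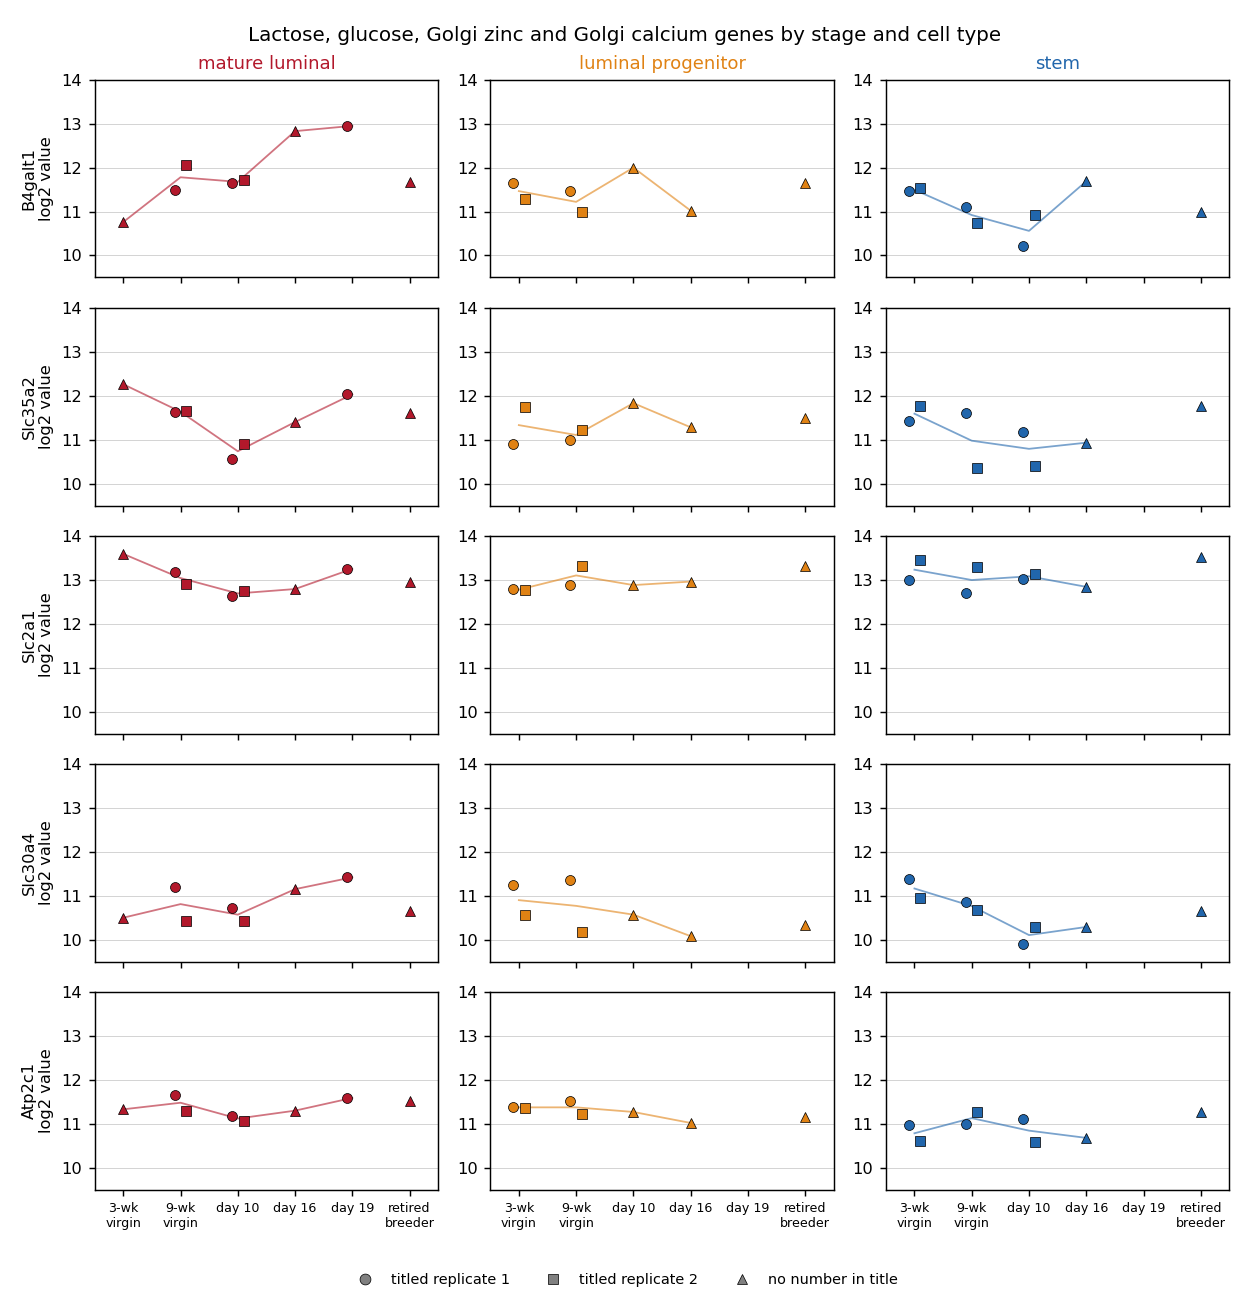
Log2 values of B4galt1, Slc35a2, Slc2a1, Slc30a4 and Atp2c1 (rows) by reproductive stage in the 3 cell types (columns), on an axis from 9.5 to 14. Each symbol is 1 array and lines join group means. All 5 genes stay between 9.91 and 13.59 on every array, and B4galt1 reaches 12.83 and 12.95 in mature luminal cells on days 16 and 19.

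Alpha-lactalbumin itself, Lalba, showed a wide range. In mature luminal cells it had 6.20 and 7.79 on day 10, 10.89 on day 16 and 11.82 on day 19, against 2.90 and 4.58 in 9-week virgins, which were under their array medians. It rose by 4.60 ± 0.72 in pregnancy (adjusted p = 0.00387), and it was 8.08 ± 1.59 higher on day 19 than in 9-week mature luminal cells (adjusted p = 0.0363), a difference that is not an exact fold because the 9-week level is within background. The 2 subunits of lactose synthase therefore differed in pattern, with the catalytic one between 10.21 and 12.95 over all arrays and Lalba between 2.09 and 11.82.

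Slc35a2, the carrier that brings UDP-galactose into the Golgi, had 10.57 and 10.90 in mature luminal cells on day 10, 11.40 on day 16 and 12.03 on day 19, against 11.63 and 11.64 in 9-week virgins. In luminal progenitors it had 11.83 on day 10 and 11.28 on day 16, against 10.99 and 11.22 at 9 weeks, and in stem cells 11.18 and 10.40 on day 10 and 10.93 on day 16, against 11.60 and 10.35. The lowest mature luminal values were those of day 10, and the 3-week array had the highest at 12.26. Its pregnancy difference was -0.08 ± 0.24 (adjusted p = 0.877). A second probe set of Slc35a2 had 8.20 on day 19, against a highest value of 6.62 on the other 22 arrays, and was 1.99 ± 0.90 above 9-week mature luminal cells (adjusted p = 0.572 over all probe sets). In mature luminal minus stem cells this probe set passed as higher, at 1.78 ± 0.40 (adjusted p = 0.0225 over all probe sets), while the probe set that stands for the gene did not. It was higher at 4 of 5 stages, by 1.44 to 3.37, and differed by -0.60 at 3 weeks. The other 4 probe sets were near or under the array medians and differed from 9-week cells by -1.54 to 1.39.

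Slc2a1, the glucose transporter GLUT1, was above the array median on every array. Its values in mature luminal cells were 12.64 and 12.74 on day 10, 12.79 on day 16 and 13.25 on day 19, against 13.18 and 12.90 in 9-week virgins. Over all arrays it ran from 12.64 to 13.59, with 12.88 and 12.96 on the pregnant luminal progenitor arrays, against 12.89 and 13.31 at 9 weeks, and 12.84 to 13.14 on the pregnant stem arrays, against 12.70 and 13.29. Pregnant and virgin arrays overlapped in each cell type, and its pregnancy difference was -0.17 ± 0.14 (adjusted p = 0.483). Its other 2 probe sets had larger pregnancy differences, of -0.48 ± 0.21 (adjusted p = 0.199 over all probe sets) and -0.54 ± 0.23 (adjusted p = 0.189), and neither passed. Each of the 2 had its highest value on day 19, at 13.26 and 13.07. Their differences from 9-week mature luminal cells were 0.51 ± 0.46 and 0.49 ± 0.50.

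Of 17 other genes of glucose uptake and first use 13 were tested. Slc2a9, a urate and hexose transporter, rose by 3.43 ± 0.77 in pregnancy (adjusted p = 0.0221), and Hif1a, the oxygen-sensing regulator, fell by 0.78 ± 0.14 (adjusted p = 0.0072). These were the 2 of 13 that passed, beside 7.13% of all genes, and the list median was 0.55, beside 0.10 for all genes. Slc2a4, the insulin-responsive transporter of fat and muscle, differed by -2.32 ± 0.48 in mature luminal minus stem cells (adjusted p = 0.011) and by -2.47 ± 0.48 in luminal progenitors minus stem cells (adjusted p = 0.0163). Adipocyte marker means ran from 3.24 to 5.95 in mature luminal cells, 4.04 to 5.60 in luminal progenitors and 4.56 to 6.34 in stem cells, and Lep was at 0 on 1 stem array. Of 3 such markers tested, Fabp4 passed as lower in mature luminal minus stem cells, at -1.60 ± 0.30 (adjusted p = 0.00602), beside 8.34% of all genes in either direction. The list median was -0.94 there and -0.85 in luminal progenitors minus stem cells. The part of adipocytes in the Slc2a4 differences was not tested.

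Of 21 other genes of lactose and UDP-sugar synthesis 19 were tested, and 4 passed in pregnancy, beside 7.13% of all genes. Lalba rose, and 3 fell, namely the water channel Aqp5 by 1.97 ± 0.43 (adjusted p = 0.0191), the UDP-N-acetylglucosamine carrier Slc35a3 by 0.81 ± 0.20 (adjusted p = 0.0305) and the phosphoglucomutase family member Pgm2 by 1.72 ± 0.43 (adjusted p = 0.0349). In mature luminal minus stem cells 3 passed as higher and 3 as lower, beside 8.34% of all genes in either direction and 1.56% as higher. Slc35a3 was higher by 0.78 ± 0.20 (adjusted p = 0.0289) and Aqp5 by 1.67 ± 0.42 (adjusted p = 0.0318). The galactosyltransferases B4galt6 and B4galt2 were lower, at -1.82 ± 0.35 (adjusted p = 0.00706) and -1.67 ± 0.40 (adjusted p = 0.0246).

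Of 25 other zinc carriers and metallothionein-related genes 21 were tested. In mature luminal minus stem cells 1 passed, beside 8.34% of all genes. It was the importer Slc39a10, lower at -1.41 ± 0.35 (adjusted p = 0.0265). In the pregnancy comparison 0 of the 21 passed by limma, beside 7.13% of all genes. Their median difference was -0.02, beside the 3.16 of Slc30a2. Of 12 genes of signalling by parathyroid hormone-related protein, 10 were tested. The proprotein convertase Pcsk5 differed by -4.06 ± 0.48 in mature luminal minus stem cells (adjusted p = 0.000572) and by -2.99 ± 0.48 in luminal progenitors minus stem cells (adjusted p = 0.00804). It was the 1 of the 10 that passed in either, beside 8.34% and 4.38% of all genes. The receptor Pth1r ranged from 2.86 to 5.09 over all arrays, and its pregnancy difference was 0.61 ± 0.37 (adjusted p = 0.335).

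The remaining comparisons called none of the 8 genes. In luminal progenitors minus stem cells 0 of 8 passed by limma, beside 4.38% of all genes. An unadjusted p under 0.05 was found for 0 of the 8, beside 2913 of all 15378. The largest differences were 1.01 ± 0.47 for Slc34a2 (6.75 against 5.74, adjusted p = 0.271) and -0.60 ± 0.52 for Atp2b2 (3.64 against 4.24, adjusted p = 0.592). With the numbered replicate block Atp2b2 passed as lower, at -2.42 with an adjusted p of 0.023. Endothelial markers averaged 9.30 and 9.78 on the 9-week stem arrays and 6.29 to 6.99 on pregnant stem arrays, with 9 of 10 lower on every pregnant one and none listed at 0. The part of such cells in the virgin stem values of Atp2b2 was not tested. In mature luminal cells minus luminal progenitors 0 of 8 passed by limma, beside 0.124% of all genes. An unadjusted p under 0.05 was found for 0 of the 8, beside 726 of all 15378. The differences ran from 0.01 in Slc2a1 to 0.93 in Slc34a2, all 8 positive with a median of 0.24, beside a median of 0.02 over all genes.

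Retired breeders minus 9-week virgins gave 0 of 8 by limma, beside 0.0065% of all genes. An unadjusted p under 0.05 was found for 0 of the 8, beside 1113 of all 15378. Slc30a2 differed by 0.90 ± 0.56 (3.56 against 2.66, adjusted p = 0.681), and its 3 retired breeder arrays were under their array medians. For 3-week minus 9-week virgins 0 of 8 passed by limma, beside 0.176% of all genes. Of all 15378 genes 1674 had an unadjusted p under 0.05, and of the 8 transport genes 2 did. Those 2 were Atp2b2, at 1.57 ± 0.60 (4.81 against 3.24, adjusted p = 0.352), and Slc34a2, at 1.18 ± 0.53 (7.18 against 6.00, adjusted p = 0.45). The pregnancy, retired breeder, 3-week and day-19 comparisons share the 9-week arrays.

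The pregnancy effect on Atp2b2 was 1.85 ± 0.89 in mature luminal cells (adjusted p = 0.43) and -1.43 ± 0.89 in stem cells (adjusted p = 0.551). The difference between these effects was 3.28 ± 1.26 with an adjusted p of 0.719. The arrays titled replicate 1, where pregnancy is day 10 only, gave 0.13 on their own. The remaining arrays, which include day 16, gave 4.88, so replicate and day cannot be told apart.

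The genes whose 16 group means ran most like each transport gene were found by Pearson correlation, as a description over groups that share stages and cell types. For Slc30a2 they were Fkbp11, a chaperone of secretory cells (0.95), the sterol pathway kinase Pmvk (0.94) and the fatty acid desaturase Fads2 (0.94). For Atp2b2 they were the fatty acid elongase Elovl5 (0.96), the sialyltransferase St6galnac3 (0.89) and the endocytic adaptor Dab2 (0.88). For Slc34a2 they were the growth factor Egf (0.92), the transcription factor Mlx (0.91) and the exchange factor Arfgef2 (0.90). For B4galt1 they were the zinc carrier Slc39a11 (0.91), the oligosaccharyltransferase subunit Rpn2 (0.90) and the heme carrier Slc48a1 (0.90). Between the transport genes themselves, Slc30a2 and B4galt1 had a correlation of 0.73.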

How the data were processed

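Per the labels' protocols, polyadenylated RNA of purified cells was turned into biotin-labelled cRNA for Affymetrix arrays. The authors deposited 1 table of log2 expression values for 45101 probe sets on 23 arrays. The log2 unit was read from the deposited values, which ran from 0 to 14.28. For probe summaries, background and scaling, the software is not given in the sources at hand, and no detection calls were used. Between 1.24% and 2.34% of an array's probe sets were at 0, which was treated as a floor. Any 2 arrays shared at most 1.48% of their values, so no duplicates were found.

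Symbols came from the platform annotation. Of the probe sets, 34945 listed 1 symbol, 932 several and 9160 none, and 64 were array controls. A gene was represented by its probe set with the highest mean and kept if 2 or more arrays had it above their own 40th percentile. One mean per group was fitted with limma 3.58.1 in R 4.3.3, with an intensity trend, 7 residual and 4.74 prior degrees of freedom. The spread of the 1-array groups was taken from those with 2. Cell type differences are equal-weight means over the 5 shared stages, and stage differences over the 3 cell types. Tests were two-sided. For arrays, their number limits the precision. The model was tested on simulated data with 200 changed genes.

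The transport genes, the 16 gene lists (194 members, 160 tested) and the settings were chosen with earlier results of these data known. All transport genes were named, with up to 4 pathway genes per list and comparison that passed, by smallest p, and the 3 genes most like each transport gene, of which some are printed.

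Replicate numbers in the titles were taken to pair the arrays. Deviations from group means correlated between the 7 groups of 2 arrays in all 21 pairs of groups, from 0.303 to 0.682 with a median of 0.47. Promoter windows were read from RefSeq tables of GRCm38.p6, which held 12 windows for the 9 genes. Alternatives were no filter, the mean of probe sets, quantile normalization, raising low values to their array's median, the compared groups alone, no trend, replicate blocks, other virgins, and arrays left out.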

Additional observations from a re-analysis of the deposited data

How the results depend on the processing

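Counts of the 8 transport genes that passed changed as follows, and no difference that had passed turned its sign. In mature luminal minus stem cells 1 gene passed, against 2 with quantile normalization, 2 with the replicate block that placed unnumbered arrays beside replicate 2, and 0 to 2 when 1 array was left out. In luminal progenitors minus stem cells it was 0, against 1 with the numbered replicate block. In pregnancy it was 1, against 0 with the numbered replicate block. Within luminal progenitors it was 1, against 0 with quantile normalization, with low values raised, with the compared groups alone and without any one array. Within mature luminal cells it was 0, against 1 with low values raised, 1 with the block that kept unnumbered arrays and 1 with 3-week and 9-week virgins together. On day 19 against 9-week virgins it was 1, against 2 with low values raised, 2 with no trend, 3 with either replicate block, 0 with the compared groups alone and 0 without either 9-week array. On day 19 against day 10 it was 0, against 1 with low values raised, 2 with the compared groups alone and 2 with either replicate block. The replicate blocks changed no other count of these genes. The cause of these changes was not tested.

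Over single genes, 1507 alternative values kept their side of the threshold and moved little, 147 moved by over 1 standard error, 25 passed newly and 17 no longer passed. Over all genes, pregnancy called 1096 of 15378, against 2404 with the block that kept unnumbered arrays, 799 with the numbered block, 1952 with all virgins, 631 with the compared groups alone and 561 without both pregnant luminal progenitor arrays. With 1 array left out it called 514 to 1318, and was lowest without the first 9-week luminal progenitor (514), the day-10 luminal progenitor (554), the first 9-week mature luminal (604) or the day-16 mature luminal array (606). Mature luminal minus stem called 1283, against 3023 with the block that kept unnumbered arrays and 683 to 1696 with 1 array left out, the lowest without day-16 stem (683) or mature luminal (704). Leaving out 1 array gave 311 to 929 in luminal progenitors minus stem cells (673 with all), 70 to 232 within mature luminal cells (346), 3 to 22 within stem cells (40), 0 to 22 within luminal progenitors (24) and 44 to 132 on day 19 against 9-week virgins (175). Day 19 could not be left out, since it had 1 array, and the numbered block could not be fitted within luminal progenitors or for retired breeders.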
